A study of Mus musculus with 4 samples.

Results

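The report concerns 10 mouse genes of serine synthesis, one-carbon metabolism and the ATF4 response: Phgdh, Psat1, Psph, Shmt1, Shmt2, Mthfd2, Mthfd1l, Asns, Atf4 and Trib3. They were taken by exact gene symbol in the array platform's annotation, which gave 25 probe sets for all 10 genes, of 18193 genes with a probe set of a single symbol. Phgdh, Shmt1 and Shmt2 had 4 probe sets each, Atf4 had 3, Psat1, Mthfd2, Asns and Trib3 had 2 each, and Psph and Mthfd1l had 1 each. RNA abundance was measured on 4 Affymetrix oligonucleotide arrays, 1 for each sample of mouse bone marrow cells. The cells had been sorted as LSK, meaning that they lacked lineage markers and carried both Sca-1 and c-kit, as the stem and early progenitor cells of marrow do. One sample carried a β-catenin retrovirus and was taken at day 3. A pair of samples, named DKmix, were β-catenin-transduced LSK cells grown for 50 and 300 days. The control sample carried a retrovirus for enhanced green fluorescent protein (eGFP) and was taken at day 3. All 4 samples had been transduced and shared one serum medium, to which non-essential amino acids (a supplement that holds serine, glycine and asparagine), pyruvate, IL-3, SCF, IL-11 and Flt3 had been added. The mouse strain, age, vector promoter and whether DKmix was clonal are not given in the sources used here. No eGFP culture of day 50 or day 300 was analysed here, so time in culture and β-catenin cannot be told apart in the DKmix samples. The series asked which target genes β-catenin works through when it immortalizes these cells. Each group held 1 array, so no test was possible and every difference below is between single arrays.

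Serine is made from the glycolytic intermediate 3-phosphoglycerate by PHGDH, PSAT1 and PSPH in turn. The hydroxymethyltransferases SHMT1, in the cytosol, and SHMT2, in mitochondria, pass a carbon of serine to tetrahydrofolate and release glycine. MTHFD2 and MTHFD1L carry that carbon on through the mitochondrial folate pathway to formate, which the cytosol uses for purines, thymidylate and methyl groups. ATF4 is a transcription factor whose translation goes up when eIF2 kinases sense amino acid shortage or other stress. Its known targets include the serine and mitochondrial folate enzymes, ASNS, which makes asparagine, and TRIB3, a pseudokinase that restrains ATF4 activity. In blood, these pathways are known for supplying growing progenitors and leukaemic cells.

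The values are MAS5 signal intensities on a linear scale, in which the level of one probe set cannot be set against that of another. Intensities below 48.3, the median of all deposited values, were raised to that floor before ratios were taken, and a gene was counted as higher or lower at 2-fold or more. Each gene was represented by its brightest probe set, and all 10 were above the floor on all 4 arrays in this way, as were 21 of the 25 probe sets. Ctnnb1, the mouse β-catenin gene, had 3 probe sets. The brightest gave 4492, 6034 and 3132 at days 3, 50 and 300 in β-catenin-transduced cells and 4732 in eGFP cells. The other pair gave 1065, 693 and 839, and 679, 471 and 483, in the β-catenin-transduced cells, against 180 and 301 in eGFP cells. Which of these match the retroviral transcript is not given in the sources used here. For Gapdh, whose 3′ signal over 5′ signal is a control for RNA integrity and labelling, that ratio was 1.18 on β-catenin day 3, 4.96 on DKmix day 50, 1.06 on DKmix day 300 and 4.14 on eGFP day 3. The same ratio of β-actin was 1.32, 3.41 and 1.20 at days 3, 50 and 300 in the β-catenin-transduced cells and 1.83 on eGFP day 3, so eGFP was near DKmix day 50 by Gapdh but nearer the low arrays by β-actin. The hybridisation controls, RNAs that the Affymetrix protocol adds in equal amount to each sample, were brighter by log2 0.94 on DKmix day 50, 1.04 on DKmix day 300 and 0.40 on eGFP day 3 than on β-catenin day 3. Mast cell markers summed to 3576, 156084 and 60606 at days 3, 50 and 300 of the β-catenin-transduced cells, with 6, 9 and 9 of 11 above the floor, against 804 and 7 of 11 on eGFP day 3. Neutrophil markers summed to 13333, 721 and 219 in the β-catenin-transduced cells, with 9, 3 and 1 of 11 above the floor, against 103393 and 11 of 11 in eGFP cells. Monocyte, macrophage and dendritic cell markers summed to 26627, 699.5 and 674 in the β-catenin-transduced cells, with 12, 6 and 4 of 12 above the floor, against 34057 and 10 of 12 in eGFP cells. The day 3 sums hide opposite differences: 7 of the 12 were at least 2-fold higher in β-catenin than eGFP cells and 4 lower. For example, H2-Aa gave 8396.5 against 1852, and Csf1r 1999.5 against 11798. At most 3 of 5 erythroid and 3 of 8 lymphoid markers were above the floor on any array. LSK and progenitor markers summed to 3516, 12274 and 11357.5 in the β-catenin-transduced cells, against 1522.5 in eGFP cells. Of these 8 markers, 7, 7 and 5 were above the floor, against 5 in eGFP cells. Among them Kit, which encodes the c-kit protein used in the sort, gave 82.9, 3459.5 and 1263 in the β-catenin-transduced cells at days 3, 50 and 300 and 55.8 in eGFP cells, so it lay close to the floor on both day 3 arrays. Eng and Slamf1 fell instead, Eng from 633.5 to 132 and 18.5 and Slamf1 from 87.6 to 62.9 and 39.0. Cd34 gave 804, 2068.5 and 4293, against 112 in eGFP cells, and Flt3 was below the floor on all 4 arrays.

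Most of the genes were brightest in β-catenin cells at day 3 and dimmest in DKmix cells at day 50. By brightest probe set, 8 of 10 were highest on the β-catenin day 3 array and 7 of 10 lowest on the DKmix day 50 array. Among 15292 genes above the floor on at least 1 array, 22.6% were highest on the β-catenin day 3 array and 24.5% lowest on the DKmix day 50 array. At day 50, 9 of the 10 genes were at least 2-fold below β-catenin day 3 and 0 were above it, where 15.7% of all 13742 measured genes were that far below and 16.1% above. At day 300, 5 of 10 were at least 2-fold below β-catenin day 3 and 0 that far above it, where the share of all measured genes that far below was 14.4%, and above 14%. In β-catenin over eGFP cells at day 3, 3 of 10 passed 2-fold upward and 0 downward, against 10.2% of all measured genes higher and 9.42% lower. These comparisons share arrays: the β-catenin day 3 array is on one side of each of them. In such bulk samples, fewer cells of a type and less RNA per cell cannot be told apart.

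**Figure D1:**
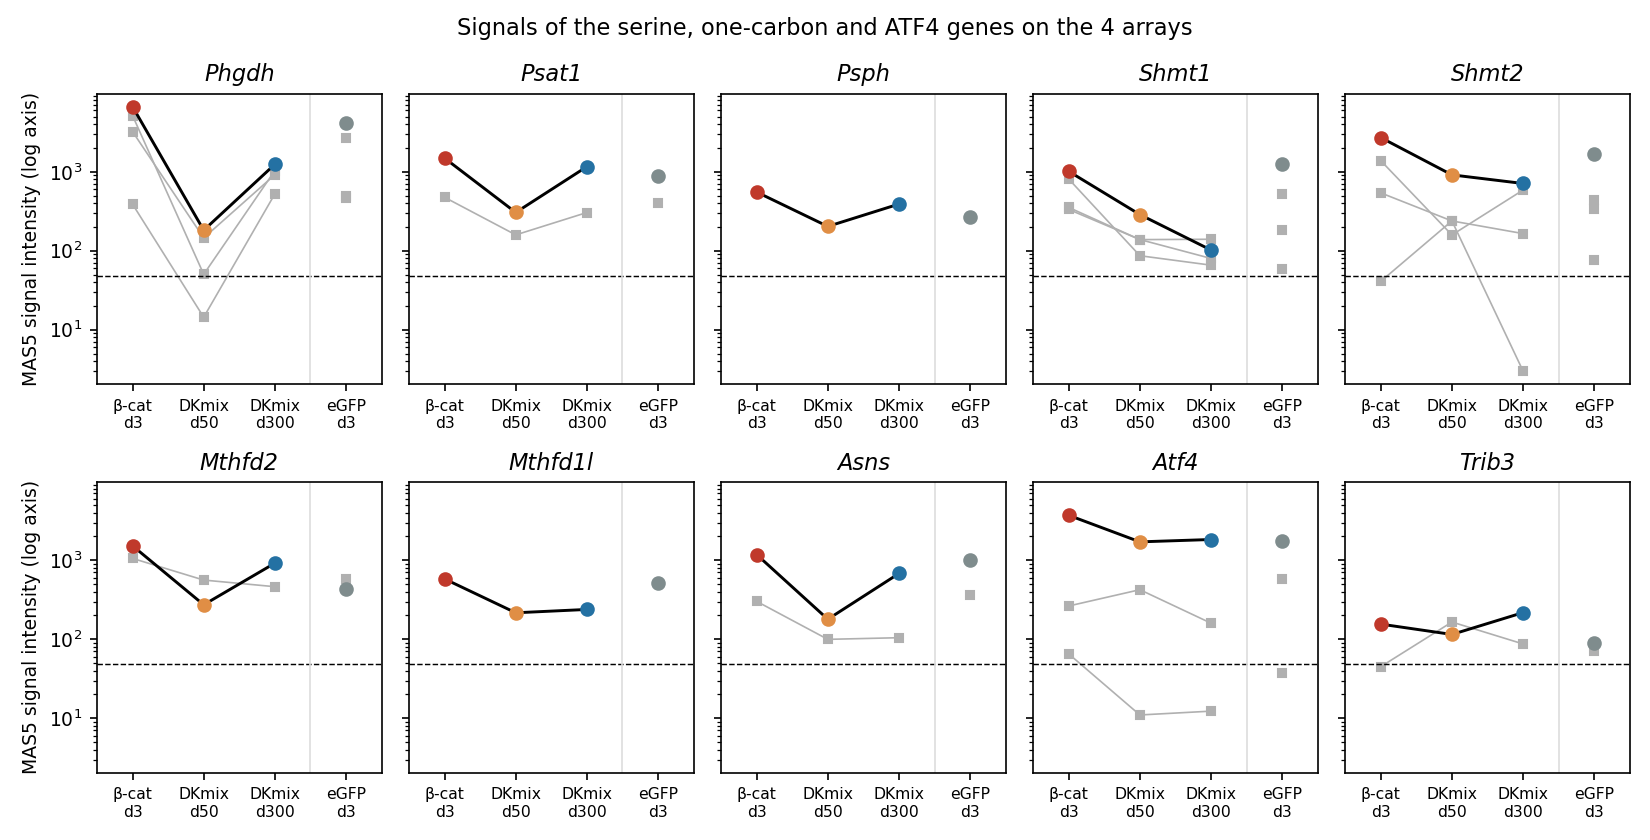
MAS5 signal intensity (log axis) of each gene on the 4 arrays, 1 panel per gene. Coloured circles joined by black lines are the brightest probe set, grey squares the others, lines join the β-catenin-transduced samples in order of time, and the dashed line is the floor of 48.3. By their brightest probe set, Phgdh, Psat1, Psph, Mthfd2 and Asns are lowest at DKmix day 50 and higher again at day 300. Shmt1 and Shmt2 are lowest at day 300 by their brightest probe set, but not by all of their probe sets.

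The serine synthesis genes were lower at day 50, and Phgdh had the lowest ratio of the 10. Phgdh, which encodes the first enzyme of the pathway, gave 6657, 182 and 1242 at days 3, 50 and 300 in β-catenin-transduced cells and 4137 in eGFP cells at day 3. DKmix day 50 was thus 36.6-fold below β-catenin day 3 (log2 ratio -5.19), and 0.0800% of all measured genes had a lower ratio. The other 3 Phgdh probe sets gave the same direction at day 50. They read 50.3, 145 and 14.4 on the DKmix day 50 array, against 5129, 3216 and 388 on the β-catenin day 3 array. The last of these day 50 values was below the floor, so its ratio was at least 8.02-fold, while the first pair was 102-fold and 22.1-fold lower. At day 300 Phgdh was 6.83-fold above day 50, and all 4 probe sets were at least 2-fold higher there. The level of day 300 was 18.7% of β-catenin day 3 by the brightest probe set, and 20.2%, 28.5% and 135% by the others, so one of the 4 did not stay below day 3. All 4 Phgdh probe sets carry the suffix by which Affymetrix marks probes that may also match other transcripts, and the RefSeq gene table lists a processed copy, Phgdh-ps1. Signal of such a copy cannot be told apart from those of Phgdh on these arrays.

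Against eGFP cells at day 3, Phgdh was 22.8-fold lower at DKmix day 50. All 4 probe sets were at least 2-fold lower in that comparison. At day 300 it was 3.33-fold below eGFP by the brightest probe set, and the other probe sets gave 2.57-fold lower, 1.84-fold higher and 1.11-fold higher. In β-catenin over eGFP cells at day 3 Phgdh was 1.61-fold higher by the brightest probe set, with log2 ratios from -0.28 to 2.69 over its 4 probe sets. That range includes both directions.

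Psat1 encodes the aminotransferase that follows PHGDH. Its brightest probe set gave 1485, 305 and 1161 in β-catenin-transduced cells at days 3, 50 and 300, and 882.5 in eGFP cells. The second gave 474, 159 and 305 in the β-catenin-transduced cells and 402.5 in eGFP cells. Both were lowest at day 50, by 4.87-fold and 2.99-fold relative to β-catenin day 3. At day 300 they stood at 78.2% and 64.3% of β-catenin day 3, differences of less than 2-fold.

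Psph encodes the phosphatase that completes serine synthesis. It gave 553, 203 and 390 at days 3, 50 and 300 in β-catenin-transduced cells and 265 in eGFP cells. The day 50 value was 2.72-fold below β-catenin day 3 but only 1.30-fold below eGFP, and the β-catenin day 3 value was 2.09-fold above eGFP. With 1 probe set there was no second reading.

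The 2 hydroxymethyltransferase genes were still at least 2-fold below β-catenin day 3 at day 300 by their brightest probe sets. Shmt1, for the cytosolic enzyme, gave 1011, 287 and 102 at days 3, 50 and 300 in β-catenin-transduced cells, and 1248 in eGFP cells. All 4 of its probe sets were at least 2-fold below β-catenin day 3 at day 50, by 2.40-fold to 9.34-fold. At day 300 all 4 were again below, with log2 ratios from -3.62 to -1.34. Against eGFP the probe sets parted: a dim one read 139 at day 50, 79.9 at day 300 and 58.8 in eGFP cells, above eGFP at both times, while the other 3 were below it. Shmt1 was 2.81-fold lower at day 300 than at day 50 by the brightest probe set, and the other 3 gave log2 ratios between -0.79 and 0.016.

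Shmt2, for the mitochondrial enzyme, gave 2706, 913 and 710 in β-catenin-transduced cells at days 3, 50 and 300, and 1665 in eGFP cells. A second probe set read 1380, 158 and 587 in β-catenin-transduced cells and 340.5 in eGFP cells, and another 540, 238 and 165, against 444. These 3 were all at least 2-fold below β-catenin day 3 at both later times. They differed in which later time was lower: the second was 3.70-fold higher at day 300 than at day 50, and the others were lower. At day 300 the second was 1.72-fold above eGFP, and the others 2.34-fold and 2.69-fold below it. The second was the only Shmt2 probe set without the suffix for probes that may match other transcripts. The fourth, a dim probe set, read 41.0, 239 and 3.0 in the β-catenin-transduced cells and 75.8 in eGFP cells, and thus ran against the other 3 at day 50.

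Of the mitochondrial folate genes, Mthfd2 was higher in β-catenin cells at day 3, by both probe sets. Mthfd2 encodes the mitochondrial methylenetetrahydrofolate dehydrogenase and cyclohydrolase, an enzyme of embryonic and proliferating cells. Its brighter probe set gave 1522, 273 and 918 at days 3, 50 and 300 in β-catenin-transduced cells and 433.5 in eGFP cells, so β-catenin day 3 was 3.51-fold above eGFP. The other gave 1055, 561 and 463 in the β-catenin-transduced cells and 572 in eGFP cells, a 1.84-fold difference at day 3. At day 50 they were 5.57-fold and 1.88-fold below β-catenin day 3. Relative to eGFP, however, the day 50 values were 1.59-fold and 1.02-fold lower, short of 2-fold. At day 300 one probe set was 3.36-fold above day 50 and the other 1.21-fold below it, so the direction between the DKmix arrays was not settled.

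Mthfd1l encodes the mitochondrial formate-releasing synthetase. Its single probe set gave 580, 216 and 238 in β-catenin-transduced cells at days 3, 50 and 300 and 517 in eGFP cells. Both DKmix arrays lay below both day 3 arrays, by 2.17-fold between the nearest values. The 2 day 3 values were alike, at a 1.12-fold difference.

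Asns, the asparagine synthetase gene, gave 1179, 179 and 680 at days 3, 50 and 300 in β-catenin-transduced cells and 998 in eGFP cells. The second probe set gave 301, 99.7 and 105 in the β-catenin-transduced cells and 366 in eGFP cells. Day 50 was 6.58-fold and 3.02-fold below β-catenin day 3, and 5.57-fold and 3.68-fold below eGFP day 3. At day 300 the probe sets gave 57.7% and 34.7% of β-catenin day 3. The brightest probe set was 3.80-fold higher at day 300 than at day 50, but the second had a log2 ratio of 0.069 there.

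The promoters of the 10 genes were searched because Asns is a textbook ATF4 target. Whether ATF4 had a part in the low Asns values was not tested. The C/EBP-ATF response element, the sequence that ATF4 dimers bind, was searched as TGATGNAA on both strands of RefSeq promoters (GRCm38.p6), each 300 bases long from 250 before to 50 after the annotated start. All 10 genes were matched, with 11 promoters in all since Psat1 has a pair. The element was present in the promoters of 2 of the 10, Asns and Trib3, and in at least 1 promoter of 4.51% of the 27025 genes in the table (3.97% of 32851 promoters). The windows are shown because they hold these matches, which are in capitals.
Asns, chr6:7693210-7693262, minus strand, last base next to the start site: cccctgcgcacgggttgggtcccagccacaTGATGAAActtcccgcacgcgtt
Trib3, chr2:152344028-152344057, minus strand, bases 4 to 33 of the transcribed side: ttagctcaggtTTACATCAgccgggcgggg
In Asns the match ends 15 bases before the start site and lies on the gene's own strand, and in Trib3 it covers bases 15 to 22 after the start and lies on the opposite strand. The MYC-type E-box CACGTG, searched as these letters, which read the same on both strands, was in 0 of the 10 genes' promoters and in those of 8.09% of all genes (7.15% of promoters). A match is a description of the letters in this window, and its absence says nothing of binding elsewhere.

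Atf4 RNA was highest on the β-catenin day 3 array and much alike on the other 3 by its brightest probe set. That probe set gave 3706, 1709 and 1831 in β-catenin-transduced cells at days 3, 50 and 300, and 1750 in eGFP cells. The β-catenin day 3 array stood 2.12-fold above eGFP, while DKmix days 50 and 300, at 2.17-fold and 2.02-fold below β-catenin day 3, had log2 ratios of -0.034 and 0.065 to eGFP. A second probe set read 264, 424 and 160 in the β-catenin-transduced cells and 574.5 in eGFP cells, and gave the opposite direction at day 3, with β-catenin 2.18-fold below eGFP. The last was above the floor only on β-catenin day 3, at 65.2. Since ATF4 is set largely by translation, its RNA is not a reading of its activity.

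Trib3 was dim and its probe sets disagreed. The brightest gave 155, 115 and 217 in β-catenin-transduced cells at days 3, 50 and 300 and 90.7 in eGFP cells. The other gave 45.0, 165 and 87.2 in the β-catenin-transduced cells and 72.0 in eGFP cells. Day 300 was above both day 3 arrays by both probe sets, with log2 ratios of 0.48 and at least 0.85 relative to β-catenin, and by 2.40-fold and 1.21-fold relative to eGFP. Scaled on the hybridisation controls, the log2 ratio to β-catenin at day 300 changed sign, to -0.56. Trib3 was the 1 gene of the 10 that was not at least 2-fold below β-catenin day 3 at day 50.

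**Figure D2:**
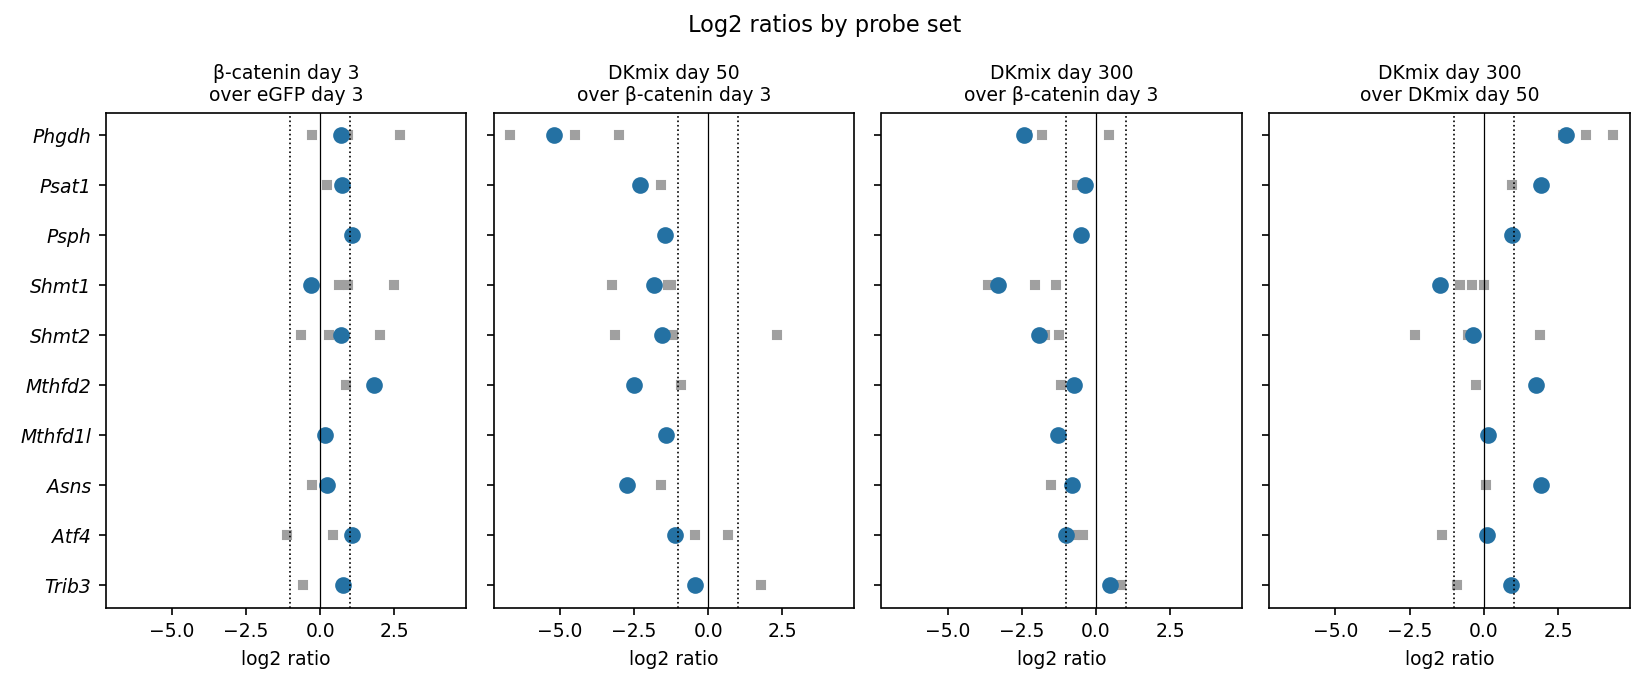
Log2 ratios of all member probe sets in the 4 comparisons (x axis), 1 row per gene. Blue circles are the brightest probe set, grey squares the others, and dotted lines mark 2-fold. In DKmix day 50 over β-catenin day 3 all 4 Phgdh and all 4 Shmt1 probe sets lie left of the 2-fold line, while 1 Shmt2 and 1 Trib3 probe set lie right of it.

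Over all 25 probe sets, 19 were at least 2-fold lower and 2 higher at DKmix day 50 than at β-catenin day 3, where 15.4% of all measured probe sets were lower and 15.5% higher. The day 300 array had 14 of 24 measured probe sets lower by that much and 0 higher, where the share lower was 13.7% and higher 13.4%. In β-catenin over eGFP cells, 6 of 25 passed 2-fold upward and 1 downward, where 11.5% of all were higher and 9.24% lower. The disagreement between probe sets of one gene, over all genes with a pair above the floor, had an SD of 0.81 in log2 for DKmix day 50 over β-catenin day 3 (3580 genes), 0.64 for day 300 over β-catenin day 3 and 0.64 for β-catenin over eGFP. It leaves out any difference between cultures. The median log2 ratio of the 10 genes was -1.69 at day 50 and -0.91 at day 300 relative to β-catenin day 3, and 0.73 for β-catenin over eGFP. The medians of all measured genes in those comparisons were 0.067, -0.076 and -0.015. The 3 genes past 2-fold in β-catenin over eGFP cells were Mthfd2, Atf4 and Psph, at log2 ratios of 1.81, 1.08 and 1.06, of which Mthfd2 alone had another probe set in the same direction and above the SD.

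Between the DKmix arrays, 4 of the 10 exceeded day 50 by 2-fold or more at day 300 and 1 was that far lower, where 15.1% of all measured genes were higher and 15.9% lower. The higher ones were Phgdh, Psat1, Asns and Mthfd2, and Shmt1 was the lower one. Psph had a log2 ratio of 0.94, and the Trib3 probe sets gave 0.92 and -0.92. Atf4 and Mthfd1l had ratios of 0.099 and 0.14. With the scale set on hybridisation controls the Atf4 ratio was -0.0066, and with quantile normalization that of Mthfd1l was -0.037. The probe set SD was largest in this comparison, at 0.91, and its arrays differed most in the 3′ to 5′ ratios, whose part in the result was not tested. When probe sets were averaged, only 2 of the 10 genes were higher, Phgdh at a log2 ratio of 3.74 and Psat1 at 1.43. Asns and Mthfd2 were then at 0.997 and 0.74, and Shmt2, at -1.33, was the lower gene in place of Shmt1, at -0.67.

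By brightest probe set, the DKmix pair lay wholly below the day 3 pair for 5 of the 10 genes: Phgdh, Shmt1, Shmt2, Mthfd1l and Asns. Of all 15292 measured genes, 16.8% did so. For Shmt1, Phgdh and Mthfd1l the lower day 3 value exceeded the higher DKmix value by 2-fold or more, at 3.53-fold, 3.33-fold and 2.17-fold, where 2.68% of all genes were that far below. For Shmt2 and Asns the gap was 1.82-fold and 1.47-fold. Other probe sets did overlap for Phgdh, Shmt1 and Shmt2. Those of Phgdh read 917 and 523.5 at day 300, against 500 and 470 in eGFP cells. One of Shmt1 read 139 at day 50 against 58.8 in eGFP cells, and one of Shmt2 587 at day 300 against 340.5. With the mean of all probe sets, 2 of the 10 genes were 2-fold lower on both DKmix arrays (share of all genes not computed). The groups overlapped for Psat1, Psph, Mthfd2, Atf4 and Trib3, and 0 of the 10 genes lay wholly above, where 15.5% of all genes did so, and 2.78% by 2-fold.

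**Figure D3:**
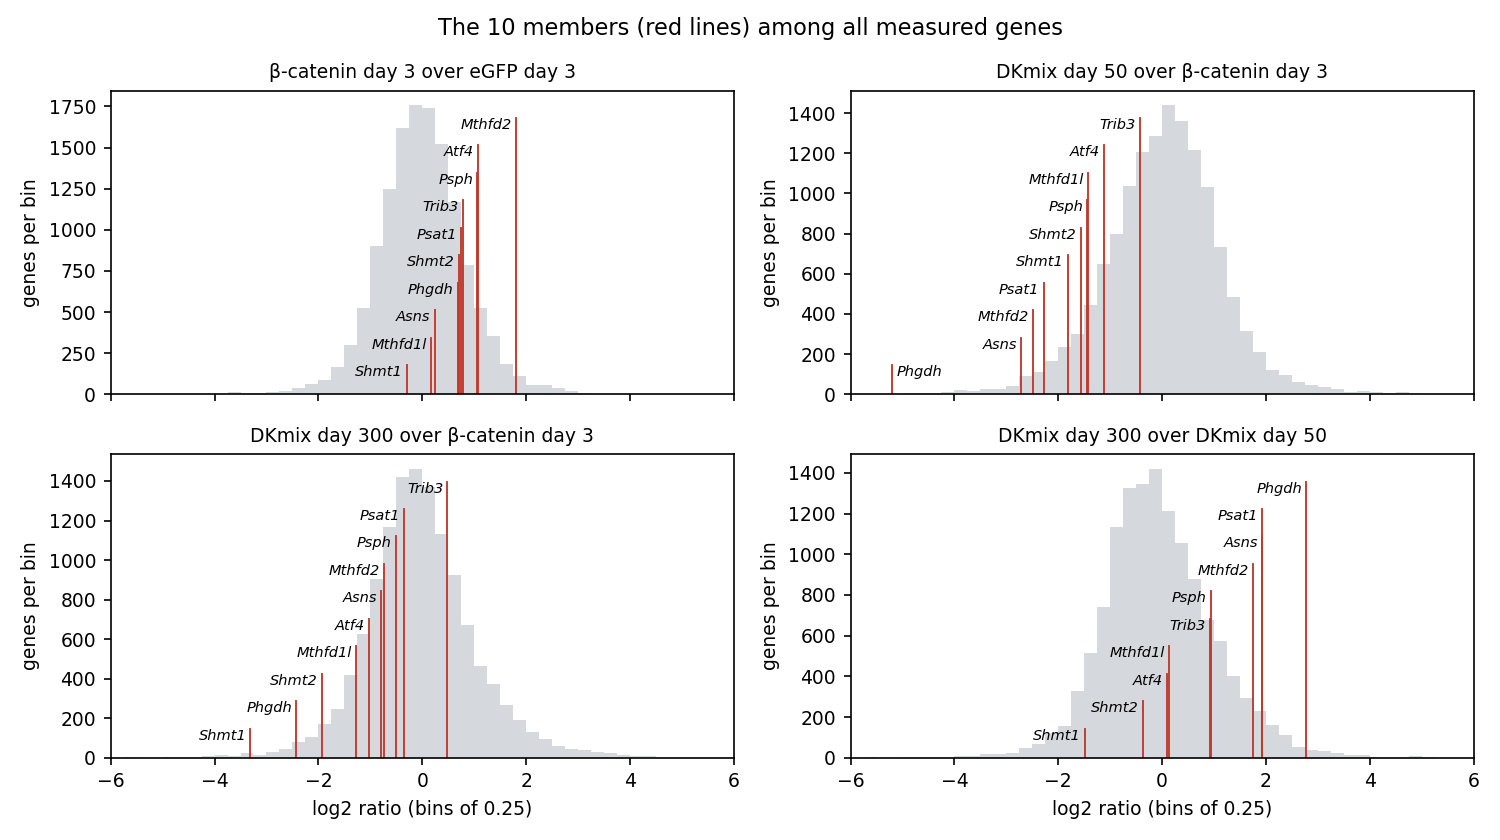
Distribution of log2 ratios over all measured genes (grey bars, genes per bin of 0.25) in the 4 comparisons, with a red line at each of the 10 genes; line heights only separate the labels, and genes beyond 6 on either side are not drawn. In DKmix day 50 over β-catenin day 3 all 10 lines lie left of 0, and Phgdh lies at -5.19.

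The comparison of DKmix with eGFP was added after the values were seen. At day 50 5 of 10 genes were at least 2-fold lower than in eGFP cells and 0 higher, where 15% of all measured genes were lower and 15.6% higher. The lower genes were Phgdh, Psat1, Shmt1, Mthfd1l and Asns. At day 300 relative to β-catenin day 3, the 5 lower genes were Phgdh, Shmt1, Shmt2, Mthfd1l and Atf4. The Gapdh ratios were alike within each of these array pairs, while those of β-actin were alike only within the second, and the part of RNA quality was not tested. Relative to eGFP cells, day 300 had 4 of 10 genes at least 2-fold lower and 2 higher, Mthfd2 and Trib3. Of all measured genes, 15.8% were lower and 15.8% higher there. The median log2 ratio in that comparison was -0.24 for the 10 genes and -0.10 for all measured genes.

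Among other enzymes around these steps, those of purine synthesis were low at day 50. Among the 12 measured, 8 lay 2-fold or more below β-catenin day 3 and 0 above, with a median log2 ratio of -1.10. Of all measured genes, 15.7% were that far below and 16.1% above. Gart, a trifunctional enzyme that takes up formyl groups from folate, gave 3012, 217 and 743 at days 3, 50 and 300 in β-catenin-transduced cells and 960 in eGFP cells. At day 300 5 of the 12 were lower (median -0.53), Ppat, the enzyme of the committed step, at 158 against 595 in β-catenin cells at day 3. Relative to DKmix day 50, 6 of 12 were higher at day 300 and 0 lower. Scaled on hybridisation controls, 12 of 12 were below β-catenin day 3 at day 50, and 9 at day 300. On the deposited scale, 14.4% of all genes were below β-catenin day 3 at day 300 and 14% above. Between the DKmix arrays, 15.1% of all genes were higher at day 300 and 15.9% lower. For no list were shares of all genes computed on the hybridisation control scale. There the median log2 ratio of all genes to β-catenin day 3 was -0.73 at day 50 and -0.90 at day 300.

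The folate cycle list was mixed on the deposited scale. Of 17 measured genes, 4 were at least 2-fold lower at day 50 than at β-catenin day 3 and 1 higher (median -0.069), and at day 300 5 of 16 were lower and 1 higher (median -0.50). On the hybridisation control scale, 9 of 16 were lower and 0 higher at day 50 (median -1.12), and 10 lower and 0 higher at day 300 (median -1.33). Of all genes on the deposited scale, 15.7% were lower and 16.1% higher at day 50, and 14.4% and 14% at day 300. Mthfd1, the cytosolic trifunctional folate enzyme, gave 2667, 977 and 476 in β-catenin-transduced cells at days 3, 50 and 300 and 2473 in eGFP cells. Slc19a1, the reduced folate carrier, gave 1337, 416 and 246 in the β-catenin-transduced cells and 1273 in eGFP cells. Gcsh, the H protein of the glycine cleavage system, gave 939, 337 and 230, against 547 in eGFP cells. All 3 were lowest at day 300, the same order as Shmt1 and Shmt2 by their brightest probe sets.

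The methionine cycle list had 4 of 10 measured genes lower and 1 higher at day 50 than at β-catenin day 3 (median -0.46), and 2 of 8 lower and 0 higher at day 300 (median -0.53). On the hybridisation control scale, 8 of 9 were lower and 1 higher at day 50, and 6 of 9 lower and 0 higher at day 300. The shares of all genes on the deposited scale were 15.7% lower and 16.1% higher at day 50, and 14.4% and 14% at day 300. Ahcy, which clears S-adenosylhomocysteine, gave 1868, 356 and 1597 in the β-catenin-transduced cells and 835 in eGFP cells. Mtap, which salvages methylthioadenosine, gave 1024, 391 and 1955, against 319 in eGFP cells. Near those shares, 2 of 10 genes for serine use and uptake were lower and 2 higher at day 50 (median 0.097). At day 300 1 of 9 was lower and 2 were higher (median 0.069). The median at day 50 was -0.96, and at day 300 -0.98, with the scale set on hybridisation controls. Slc1a5, a neutral amino acid transporter, was lower at both times, at 337 on day 50 and 376 on day 300, against 917 in β-catenin cells at day 3. Ptdss1, which makes phosphatidylserine, was 3.73-fold higher at day 50 than at β-catenin day 3, at 1284 against 344.

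Cytosolic aminoacyl-tRNA synthetases, several of which are ATF4 targets, were low at day 50 as a group. Of 19 measured, 14 were at least 2-fold below β-catenin day 3 and 0 above (median -1.76), beside the 15.7% of all genes. At day 300 4 of 19 were lower and 0 higher (median -0.71), beside 14.4% and 14% of all genes. Relative to day 50, 11 were higher and 1 lower at day 300 (median 1.14), beside 15.1% and 15.9% of all genes. On the hybridisation control scale, 18 of 19 were lower than β-catenin day 3 at day 50 and 18 at day 300, with medians of -2.70 and -1.75. The medians of all genes on that scale were -0.73 and -0.90. Farsa, a subunit of the phenylalanine enzyme, gave 989, 140 and 414 in β-catenin-transduced cells at days 3, 50 and 300 and 331 in eGFP cells. Sars, the seryl-tRNA synthetase, gave 2054, 556 and 3049 in the β-catenin-transduced cells and 793.5 in eGFP cells. Hars, the histidyl enzyme, was the exception between the DKmix arrays, at 897, 1254 and 202, against 897 in eGFP cells. In β-catenin over eGFP cells at day 3, 6 of 19 were higher and 0 lower (median 0.65), beside 10.2% and 9.42% of all genes.

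The stress response targets of ATF4 did not all go with the biosynthetic ones. Of 22 measured, 7 were at least 2-fold lower and 3 higher at day 50 relative to β-catenin day 3 (median -0.38). The counts at day 300 were also 7 and 3 (median -0.51), of partly other genes: Atf5 was lower by 2-fold only at day 50, and Slc7a1, an arginine transporter, only at day 300. On the hybridisation control scale, 13 were lower and 0 higher at day 50, and 16 lower and 1 higher at day 300. Of all genes on the deposited scale, 15.7% were lower and 16.1% higher at day 50, and 14.4% and 14% at day 300. Ddit3, which encodes the stress factor CHOP, gave 106, 359 and 1275 in β-catenin-transduced cells at days 3, 50 and 300 and 199 in eGFP cells. Chac1, a glutathione-degrading enzyme, gave 209, 6.9 (below the floor) and 52.5, against 146 in eGFP cells. Eif4ebp1, a repressor of translation, gave 1381, 206 and 386.5, against 1281.5 in eGFP cells. Atf5, a related transcription factor, gave 260, 16.4 (below the floor) and 169 in the β-catenin-transduced cells and 48.0 in eGFP cells. Ddit3 was highest at day 300, where Asns was at 57.7% and Phgdh at 18.7% of β-catenin day 3.

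The list of eIF2 kinases and ATF4 regulators went both ways, with 3 of 10 lower and 3 higher at day 50 relative to β-catenin day 3, and 0 lower and 2 higher at day 300. Scaled on hybridisation controls, 6 were lower and 1 higher at day 50, and 5 lower and 0 higher at day 300. The shares of all genes on the deposited scale were 15.7% lower and 16.1% higher at day 50, and 14.4% and 14% at day 300. Gcn1, the activator of the amino acid sensing kinase GCN2, gave 599, 106 and 319 in β-catenin-transduced cells at days 3, 50 and 300 and 276.5 in eGFP cells. Impact, an inhibitor of GCN2 activation, gave 155, 521 and 78.8 in the β-catenin-transduced cells and 248 in eGFP cells. Eif2ak1, the haem-regulated eIF2 kinase, gave 322, 172 and 416, against 74.4 in eGFP cells.

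Glycolytic genes were low at day 50 but not at day 300 on the deposited scale. Their list includes Pkm, whose enzyme acts after 3-phosphoglycerate, so not all of it is upstream of PHGDH. Among the 11 measured, 7 lay 2-fold or more below β-catenin day 3 and 0 above at day 50 (median -1.51), beside 15.7% and 16.1% of all genes. At day 300 0 were below and 3 above (median 0.38, and -0.66 on the scale of the hybridisation controls), beside 14.4% and 14% of all genes. Relative to day 50, 10 of 11 were higher at day 300 and 0 lower, beside 15.1% and 15.9% of all genes. Pgk1, whose product is 3-phosphoglycerate, gave 8516, 2989 and 11081 in β-catenin-transduced cells at days 3, 50 and 300, and 8594 in eGFP cells. Tpi1, triose phosphate isomerase, gave 7093, 1045 and 9896.5, against 5389 in eGFP cells. By its brightest probe set, Phgdh was thus 5.36-fold below β-catenin day 3 at day 300, where these glycolytic genes were not below it on the deposited scale. Another Phgdh probe set stood at 135% of β-catenin day 3.

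Genes of proliferation were also low at day 50. Among the 17 measured, 10 lay 2-fold or more below β-catenin day 3 and 0 above (median -1.03), and their signals summed to 37291, 16686 and 26904.5 at days 3, 50 and 300 in β-catenin-transduced cells and 38253 in eGFP cells. At day 300 4 were below and 1 above (median -0.12), beside 14.4% and 14% of all genes. At day 50 the shares of all genes were 15.7% and 16.1%. Scaled on hybridisation controls, 17 were below at day 50, and 10 below and 0 above at day 300 (median -1.16). Plk1, a mitotic kinase, gave 1042, 75.5 and 968, against 906 in eGFP cells. The part of proliferation, of the mast cell markers and of the 3′ to 5′ ratios in the day 50 values of the 10 genes was not tested.

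**Figure D4:**
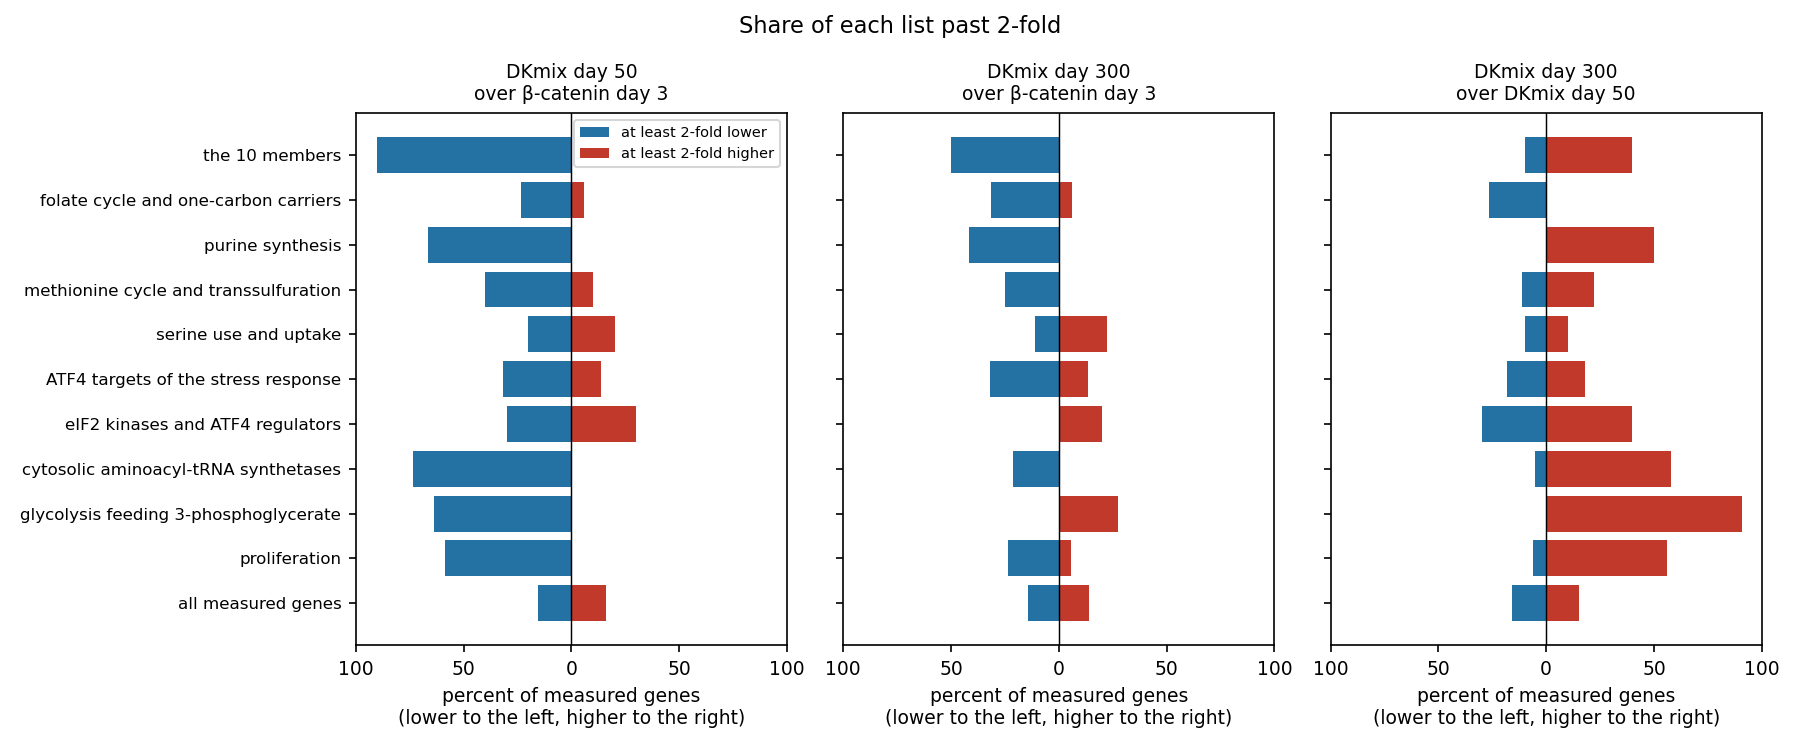
Percent of measured genes at least 2-fold lower (blue, to the left) or higher (red, to the right) in 3 comparisons, for the 10 genes, 9 related lists and all measured genes. At DKmix day 50 over β-catenin day 3, 9 of the 10 genes, 14 of 19 tRNA synthetases, 8 of 12 purine genes and 7 of 11 glycolytic genes were lower, beside 15.7% of all genes.

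Profiles most like those of Phgdh, Mthfd2 and Asns were sought among 7573 other genes above the floor on all 4 arrays, by the root mean square distance of centred log2 intensities. For Phgdh the nearest was Fabp5, a fatty acid binding protein, at a distance of 0.41, with 2245, 57.5 and 783 at days 3, 50 and 300 in β-catenin-transduced cells and 1397 in eGFP cells. It was the 1 gene within 0.5 of Phgdh, and Fut8, Ptpn6, Slc16a1 and Glg1 followed at 0.61 to 0.72. Mthfd2 had 254 genes and Asns 242 within that distance. The nearest to Mthfd2 were Ppil1, Rnaseh2a, Exosc10, Ppp5c and Emb, at 0.023 to 0.11, and the nearest to Asns were Clic4, Glrx, Mrpl28, Upp1 and Wdr46, at 0.066 to 0.13. With 4 arrays, many genes share a profile. The distance keeps the size of the differences, so a gene with as wide a range as Phgdh has few near it whatever its order of arrays.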

How the data were processed

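RNA of 4 mouse bone marrow cell samples was measured on 1 Affymetrix array each. The deposited intensities were linear MAS5 signals for each probe set, per the submitters' processing notes. The version of MAS5 and the genome build are not given in the sources used here, and no detection calls were used. The intensities were on a common scale, since the mean after trimming both ends was 150 on each of the 4 arrays, and they were used as deposited. Gene symbols came from the platform's annotation table, and 34945 single-symbol probe sets without controls were used, of 45101. Values were raised to a floor of 48.3 (percentile 50 of all values), so that where 1 of the arrays lay there the ratio is a bound. Each gene was represented by the probe set of greatest average log2 intensity. Ratios, counts past 2-fold and medians were computed in Python 3.11.15 with pandas 2.3.3 and numpy 2.4.6, lowess with statsmodels 0.14.6, and the ratio code was tested on simulated data. The number of arrays limits the precision, and no p-value is given. Sequences came from RefSeq promoters of GRCm38.p6.

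All genes named are the 10 members with every probe set, up to 4 members of a related list past 2-fold with an intensity of at least 4 times the floor, and the 5 nearest profiles. DKmix over eGFP day 3 was compared after the values were seen. The members and lists were chosen with earlier results of these data known. Alternatives were quantile normalization, lowess centring (fraction 0.3), the scale of the hybridisation controls, and floors at percentiles 25 and 75. The others were the mean of all probe sets, leaving out cross-matching probe sets where the gene had another, and a threshold of 3-fold.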

Additional observations from a re-analysis of the deposited data

How the results depend on the processing

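The hybridisation control scale moved the median log2 ratio of all genes to 0.34 in β-catenin over eGFP cells at day 3. Relative to β-catenin day 3 it became -0.73 at day 50 and -0.90 at day 300, and between the DKmix arrays -0.17. On that scale 7 members were higher in β-catenin than eGFP cells, 9 were lower at day 300 than at β-catenin day 3, and 5 were 2-fold lower on both DKmix arrays than on both day 3 arrays. Relative to all genes, the members' median was -1.90 at day 50 and -1.05 at day 300 over β-catenin day 3, against -1.76 and -0.83 on the deposited scale. With the mean of all probe sets 2 members were higher at day 300 than at day 50. At 3-fold, 1 member was higher in β-catenin than eGFP cells, 5 were lower at day 50 and 3 at day 300 than at β-catenin day 3, and 0 were lower at day 300 than at day 50. Shares of all genes on the hybridisation control scale, and past 3-fold, were not computed. The shares given above for 2-fold on the deposited scale do not apply to these counts. All other counts of members stayed within 1.5 times under the 8 alternatives, lowess centring not being run for the pairs of arrays. Of 280 alternative log2 ratios of single members, 245 moved by less than the probe set SD, and 35 moved by more. Many of the 245 could not move, so their number is no measure of stability. All members lay above the floor of 48.3, so the 40 ratios at percentile 25, and the counts there, had to stay unchanged. The 36 that stayed without cross-matching probe sets came from the same probe set as before. Psph and Mthfd1l, with a single probe set, could not change by averaging. Of the ratios past 2-fold on the deposited scale, 0 changed sign. Shmt2 at day 300 over day 50, at -0.36, became 1.89 without cross-matching probe sets. Phgdh had only cross-matching probe sets and kept its brightest one, so that setting did not test its values. Of the 35, 20 were on the hybridisation control scale. No paired analysis was possible because each group held 1 array, and leaving out a replicate was not possible for the same reason. Without replicates, the spread between cultures is unknown. The causes of these changes were not tested.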
